A study of Mus musculus with 16 samples.

Results

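The strain by surgery interaction is the difference between 2 inbred mouse strains in how a gene of the rotator cuff muscle changed after surgery. It was taken over all 16 samples of the study, in 4 groups of 4, and over the 11709 genes that could be tested. The groups were unoperated control C57BL/6J (BL6 below), C57BL/6J after tenectomy and denervation, unoperated control MRL/MpJ (MRL below), and MRL/MpJ after the same operation. Tenectomy removes the tendon, so that the muscle loses its load, and denervation cuts its nerve supply. For each gene the change in BL6 was subtracted from the change in MRL on the log2 scale, so a positive interaction means a change that was more positive in MRL, and a negative one a change that was more negative in MRL. The labels give no age, sex or time after surgery, the series text names the infraspinatus where the sample labels name the supraspinatus, and neither says whether the 4 samples of a group came from separate animals, so p-values measure the spread between these samples.

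A muscle that loses its tendon and nerve shortens, atrophies and takes up fat and fibrous tissue, and its fibers switch on genes normally restricted to the nerve contact. BL6 is the common reference strain of mouse genetics. MRL is known for closing ear holes with little scar, and the design asks whether its torn and denervated muscle responds differently. In bulk muscle RNA, fewer cells of a type and less RNA per cell cannot be told apart.

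Total counts per sample ran from 24323862 to 43552964, and 3 counts correspond to 0.0689 to 0.123 CPM (counts of a gene for each 1000000 counts of its sample, with library sizes scaled by TMM). Genes of fast fibers, which make up most of this kind of muscle, summed to between 57770 and 189970 CPM in the 16 samples. In all, 3 of the 16 libraries are treated here as standing apart from their groups, and results that rest on them are given with and without them. Replicate 1 of unoperated MRL had macrophage genes summing to 546 CPM, against 118 to 154 in the other 3 samples. Replicate 4 of operated BL6 had 952 CPM of the same genes, against 155 to 272, and 10238 CPM of collagen genes, against 1766 to 2987. Replicate 4 of operated MRL had 11.8% of its counts in mitochondrially encoded genes, against 20.1% to 24.9% in the other operated MRL samples and 11.0% to 11.6% in unoperated MRL. In that same library the potassium channel gene Kcna7 stood at 63.2 CPM, against 4.44 to 8.32 in the other operated MRL samples and 35.9 to 78.8 in unoperated MRL, whereas Ankrd1, a stress-induced ankyrin repeat protein of muscle, stood at 511 against 165 to 186 and 11.9 to 19.1. Kcna7 and Ankrd1 were chosen for this after their values were seen. Replicate 2 of operated BL6 was not counted among the 3. Its fast fiber genes summed to 189190 CPM, against 57770 to 125300 in the other operated BL6 samples.

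By edgeR's quasi-likelihood test, with p-values adjusted over all genes and 0.05 as the threshold, the interaction was called for 29 of 11709 genes (0.248%). The change was more positive in MRL for 18 genes (0.154%) and more negative for 11 (0.0939%). Without adjustment 1843 genes (15.7%) had a p under 0.05, 1005 of them positive (8.58%) and 838 negative (7.16%), and the median interaction of all genes was -0.01. All 29 had also changed in BL6 by its own test, where 67.9% of all genes did (35.1% up and 32.8% down), and 8 had changed in MRL, where 45.0% did (22.3% up and 22.7% down). The 18 positive genes all fell in BL6, and of these 6 fell and 1 rose in MRL. The 11 negative genes all rose in BL6, and of these 0 rose and 1 fell in MRL. The change was larger in size in BL6 for 28 of the 29, as it was for 76.2% of all genes tested. The changes in each strain enter the interaction by which the 29 were picked, so these counts are no separate evidence. The 2 genes with a called change of opposite sign in the 2 strains were Snx10 and Tcea1. The text names 26 of the 29, and 2 of the others carry clone names.

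**Figure D1:**
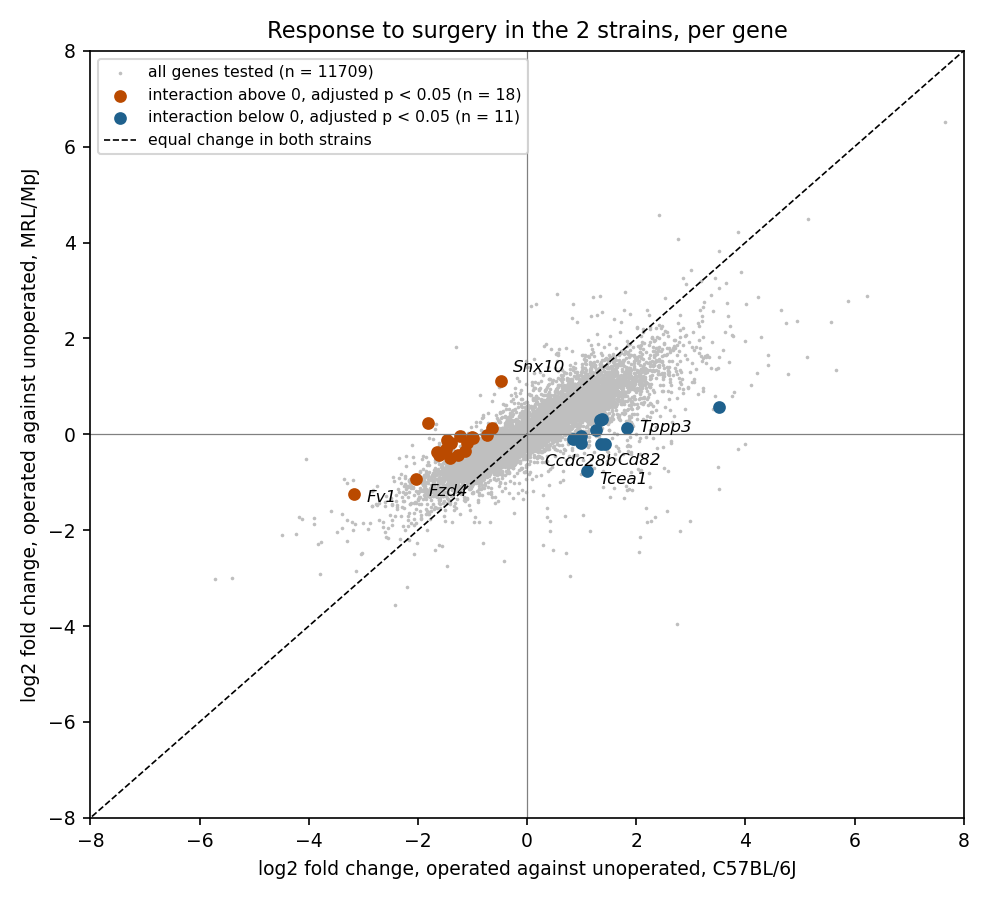
Log2 fold change after surgery in C57BL/6J (x axis) and MRL/MpJ (y axis) for each of the 11709 genes tested. Orange points are the 18 genes called with a positive interaction, which lie left of 0 on the x axis, blue points are the 11 called with a negative one, which lie right of 0, and the dashed line marks equal change in both strains.

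Of the 29 genes, 11 showed a called difference between the strains among operated samples and none among unoperated ones. Among them were 9 that fell in BL6, such as Matr3, an RNA-binding protein of the nuclear matrix, and 2 that rose, Tppp3 and a clone-named gene. Matr3 held 78.6, 73.7, 70.5 and 80.4 CPM in unoperated BL6 and 52, 51.5, 45.6 and 46 CPM in operated BL6. Its MRL samples held 68.1, 70.4, 75.4 and 75.9 CPM without and 83.6, 73.4, 79.8 and 78.6 CPM with surgery. All 4 operated BL6 samples lay below the other 12, the interaction was 0.76 (SE 0.12) with an adjusted p of 0.0311, and the gene was called in 8 of the 16 fits that each left out a sample.

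**Figure D2:**
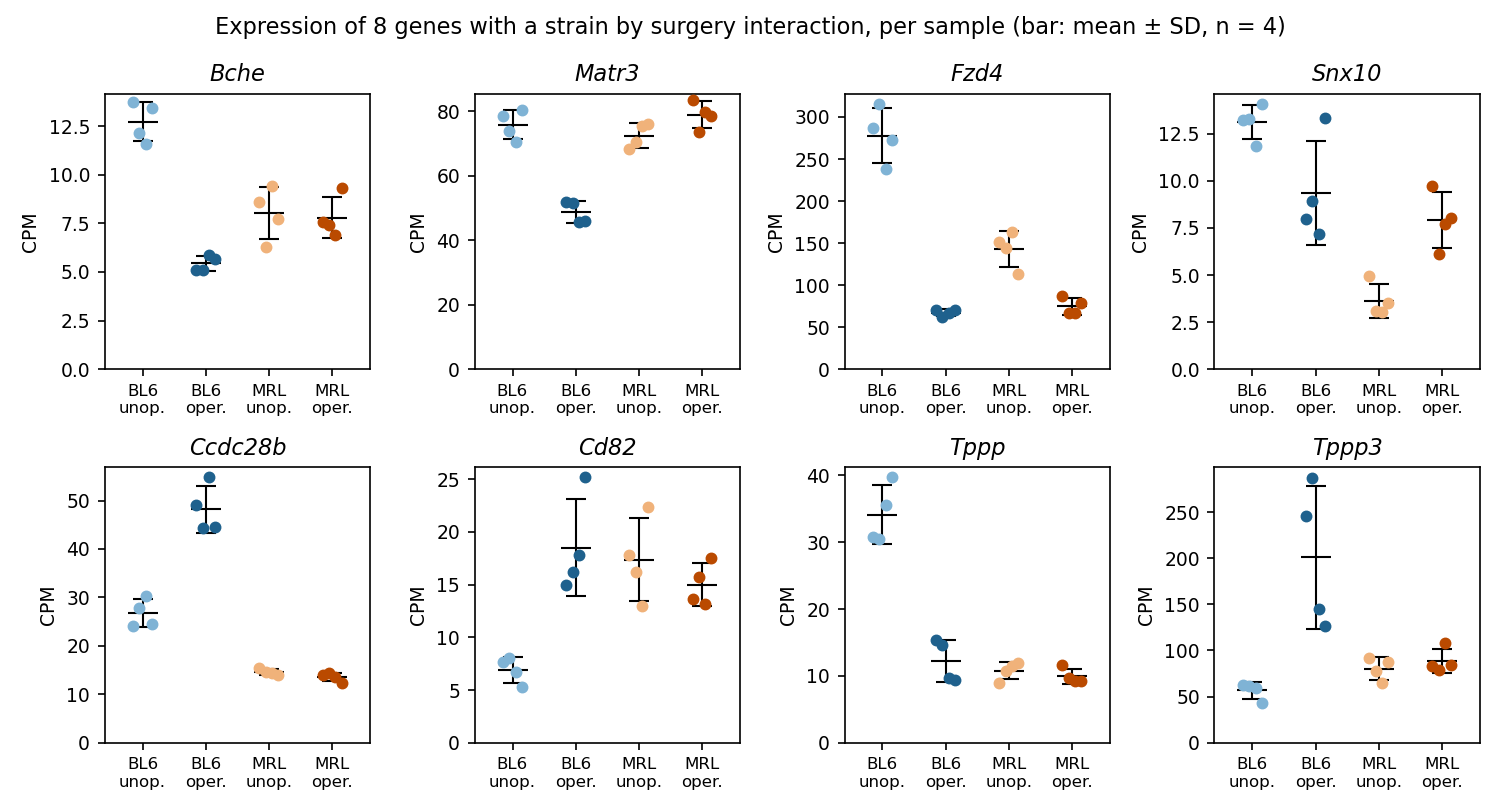
CPM of 8 genes called in the interaction, in each of the 4 samples of unoperated and operated C57BL/6J (blue) and MRL/MpJ (orange), with mean and SD. The upper row shows 4 genes with a positive interaction, among them Matr3, whose operated C57BL/6J samples are between 45.6 and 52 CPM, and the lower row shows 3 genes with a negative one (Ccdc28b, Cd82 and Tppp3) beside Tppp, which had a positive one.

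The same pattern of a fall in BL6 that was smaller or not called in MRL held for Gcn1l1, the activator of the amino acid sensing kinase Gcn2, for the transcription factor Sp3, for the Y-linked RNA helicase Ddx3y, and for Pcmtd2, Oxr1, Jade1 and Fv1. Gcn1l1 went from 48.1 ± 6.76 to 24.3 ± 1.08 CPM in BL6 (SD, n = 4), and from 54.5 ± 5.03 to 51.6 ± 6.61 in MRL. Sp3 went from 25.4 ± 2.09 to 15.3 ± 1.84 CPM in BL6, and from 26.2 ± 1.83 to 26.2 ± 1.89 in MRL. For both genes the operated BL6 samples lay below all samples of the other 3 groups. Pcmtd2, Oxr1, a protein of oxidation resistance, and Jade1, a subunit of a histone acetyltransferase complex, fell in both strains, by 3.06-fold, 2.66-fold and 2.4-fold in BL6 and by 1.35-fold, 1.4-fold and 1.35-fold in MRL. Fv1, which restricts murine retroviruses and derives from a retroviral gene, had the largest fall of the 26 called genes named here, from 5.92, 5.55, 6.26 and 6.74 to 0.444, 1.16, 0.752 and 0.37 CPM in BL6. In MRL it went from 5.07, 5.88, 4.87 and 4.82 to 2.11, 1.84, 1.81 and 2.92 CPM. Operated and unoperated samples did not overlap in either strain, and the interaction of Fv1 was 1.93 (SE 0.38). Strain alleles of Fv1 are known to differ in sequence, and their part in these counts was not tested.

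Another 9 of the 29 genes showed a called strain difference among unoperated samples and none after surgery. They include Tppp, described below with its family, and 1 clone-named gene. Cd82, a tetraspanin of the cell surface, was lower in unoperated BL6, with 7.63, 7.99, 6.69 and 5.3 CPM, than in unoperated MRL, with 17.9, 16.2, 12.9 and 22.4 CPM. After surgery it held 14.9, 16.2, 17.8 and 25.2 CPM in BL6 and 13.6, 15.7, 13.1 and 17.5 CPM in MRL. Surgery raised it 2.68-fold in BL6, where the groups did not overlap, and the operated strains overlapped. Its interaction of -1.63 (SE 0.27) was called in 6 of 16 fits that left out a sample, and it is 1 of the 4 genes called once gene length was accounted for.

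The Wnt and norrin receptor gene Fzd4 was higher in unoperated BL6, with 287, 315, 238 and 272 CPM, than in unoperated MRL, with 151, 145, 163 and 113 CPM. After surgery it held 70.6, 61.6, 67.4 and 70.2 CPM in BL6 and 87.2, 66.8, 66.5 and 79.1 CPM in MRL, and the operated strains overlapped. It fell in both strains, by 4.12-fold and 1.91-fold, and the interaction was 1.11 (SE 0.19). Rrm2b, the ribonucleotide reductase subunit induced by p53, fell from 24.2 ± 2.03 to 7.77 ± 1.94 CPM in BL6 (SD, n = 4), and stood at 12.1 ± 2.08 and 9.37 ± 0.854 CPM in MRL. Tmem245 fell in both strains, by 2.19-fold in BL6 and 1.28-fold in MRL.

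Genes of 2 biosynthetic steps were lower in unoperated BL6 than in unoperated MRL and rose in BL6 after surgery. Gamt, which completes creatine synthesis, rose from 4.27, 5.94, 5.31 and 5.44 to 13.2, 11.1, 13.7 and 16.3 CPM in BL6, while MRL held 15.2, 13.9, 12.4 and 13 CPM without and 16, 18.1, 20.1 and 13.9 CPM with surgery. Mvd, a decarboxylase of the mevalonate route to cholesterol, rose from 8.78 ± 0.692 to 22.5 ± 6.83 CPM in BL6 (SD, n = 4), and stood at 17.4 ± 4.19 and 15.2 ± 3.06 CPM in MRL. In both genes the unoperated BL6 samples lay below all samples of the other 3 groups, and the interactions were -1.05 (SE 0.20) and -1.55 (SE 0.30).

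Snx10, a sorting nexin of endosomes, moved in opposite directions. It held 13.2, 13.3, 11.9 and 14.1 CPM in unoperated BL6 and 7.95, 8.95, 7.16 and 13.3 CPM in operated BL6. In MRL it held 4.95, 3.07, 3.03 and 3.49 CPM before and 9.74, 6.14, 7.7 and 8.05 CPM after surgery. It rose 2.17-fold in MRL without overlap, and in BL6 it fell by 1.4-fold (adjusted p = 0.0417 in edgeR's test), where replicate 4 of the operated group, the library that stood apart, lay within the unoperated range. The interaction was 1.61 (SE 0.29), and without that library and replicate 1 of unoperated MRL it was 2.03 with an adjusted p of 0.000605.

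The remaining 9 genes differed between the strains in both states. For 4 of them the strain difference changed sign: Bche, Tmf1, Nup160 and Kcnc4 were lower in MRL without surgery and higher in MRL with it. Bche encodes butyrylcholinesterase, which hydrolyses choline esters, and it fell from 13.7, 12.2, 11.6 and 13.4 to 5.13, 5.11, 5.87 and 5.69 CPM in BL6. In MRL it held 8.59, 6.29, 9.42 and 7.75 and 7.55, 7.42, 6.92 and 9.29 CPM, all above the operated and below the unoperated BL6 samples. Its interaction was 1.19 (SE 0.19), and the change in MRL was -0.04 (SE 0.13). Tmf1, a coiled-coil protein of the Golgi, fell in BL6 from a range of 27.6 to 31.7 CPM to one of 12 to 16 CPM, while MRL stood at 16.4 to 21.4 CPM without and 16.5 to 18.1 CPM with surgery. Nup160, a scaffold of the nuclear pore, fell 2.02-fold and Kcnc4, a voltage-gated potassium channel, fell 2.79-fold in BL6, and their MRL changes were -0.06 (SE 0.12) and -0.30 (SE 0.16) on the log2 scale.

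For the other 5 genes of these 9, MRL was lower in both states and the gap widened after surgery, since each rose in BL6 and none rose in MRL. Ccdc28b, a coiled-coil protein linked to cilia, rose from 24.2, 27.9, 30.3 and 24.5 to 49, 44.4, 54.8 and 44.6 CPM in BL6, without overlap. In MRL it held 15.5, 14.6, 14.4 and 14 CPM without and 13.9, 14.5, 13.7 and 12.3 CPM with surgery. Its interaction of -0.96 (SE 0.14), adjusted p = 0.0198 in edgeR's test, was called in 13 of 16 fits that left out a sample, the most of the 26 named genes. The gene lies at chr4:129619274-129623947 on the reverse strand of GRCm38, with 2026 bases of exons, and it overlaps Tmem234.

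The 4 others were Hspa8, the constitutive Hsp70 chaperone, the ribosomal protein genes Rpl34 and Rpl35a, and Tcea1, an elongation factor that rescues stalled RNA polymerase II. All 4 had low counts in MRL in either state. Hspa8 held 197, 147, 171 and 195 CPM in unoperated and 414, 390.0, 315 and 284 CPM in operated BL6, against 16.9 to 19.3 and 14 to 18.6 CPM in MRL. Rpl34 held 57.1 to 71.2 and 129 to 171 CPM in BL6, against 2.06 to 3.02 and 2.31 to 3.73 CPM in MRL. The gap in unoperated muscle was 9.62-fold for Hspa8, 24-fold for Rpl34, 19.8-fold for Rpl35a and 2.57-fold for Tcea1. Tcea1 rose from 6.67, 7.11, 5.89 and 6.17 to 11.8, 11.5, 14.7 and 17.4 CPM in BL6 and fell from 2.05, 2.66, 2.58 and 2.76 to 1.3, 1.11, 0.959 and 2.45 CPM in MRL, where replicate 4 of the operated group lay within the unoperated range.

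Counts of such genes depend on how reads are shared among near-identical copies. Transcripts of the annotation at least 95% identical to the gene over at least 50% of the shorter transcript numbered 9 for Rpl35a, 5 for Rpl34, 2 for Tcea1, 1 for Rrm2b and 1 for Gcn1l1, and none of them is among the genes tested. Matr3 had 2, which overlap it. The levels and interactions of these 6 genes are therefore uncertain. Hspa8 had no copy by this measure, and Rps2, described below, was not searched, yet both have the same wide gap between the strains and are held uncertain too. Only called genes were searched, so Rpl11, Rpl6 and the other ribosomal protein genes of the list below were not. Whether strain differences in sequence moved reads between copies was not tested. Of the 26 named genes, 8 overlap another annotated gene, and the use of strand in counting is not given in the sources used here.

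Tppp and Tppp3 belong to 1 small family, the tubulin polymerization-promoting proteins, which bind and bundle microtubules, and both were called with opposite signs. Tppp fell in BL6 from 30.7, 30.4, 35.5 and 39.7 to 15.3, 14.6, 9.7 and 9.44 CPM. In MRL it stood at 8.96, 10.8, 11.4 and 11.9 CPM before and 11.6, 9.68, 9.2 and 9.21 CPM after surgery. Of the operated BL6 samples, replicates 3 and 4 lay within the range of MRL and the other two above it. Tppp3 rose in BL6 from 62.2, 61.4, 59.8 and 43.3 to 246, 287, 145 and 126 CPM. In MRL it held 91.4, 77.6, 64.6 and 88 CPM before and 83.2, 79, 108 and 84 CPM after surgery, with overlap. Every operated BL6 sample of Tppp3 lay above every other sample. The interactions were 1.35 (SE 0.23) for Tppp and -1.69 (SE 0.32) for Tppp3, and each was called in few of the 16 fits that left out a sample, 6 and 3.

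Of the list of 14 tubulin and TPPP genes, 13 were tested, and the median interaction was -0.64. In BL6 9 of them rose and 2 fell, where 35.1% of all genes rose and 32.8% fell. In MRL 7 rose and 2 fell, where 22.3% of all genes rose and 22.7% fell. The beta-tubulin Tubb6 rose in both strains, with log2 fold changes of 1.21 in BL6 and 0.57 in MRL, with an interaction of -0.64 (SE 0.27) that was not called (adjusted p = 0.277 in edgeR's test). The list median was -0.34 without replicate 1 of unoperated MRL and replicate 4 of operated BL6.

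The interaction rose with gene length. Among the shortest of 10 equal bins of genes, with up to 1750 bases of exons, the median interaction was -0.27, and among the longest bin, from 10131 bases, it was 0.23. The share of genes with an interaction above 0 rose from 20.6% to 74.2% between the same bins. Surgery in BL6 raised the median of the shortest genes by 0.58 and lowered that of the longest by 0.33 on the log2 scale, and in MRL the same medians were 0.29 and -0.10. The 11 called genes with a negative interaction had exon lengths of 720 to 4301 bases, all under the median of 4540 for the genes tested. Of the 18 with a positive one, 15 were longer than that median.

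The slope of expression on length was taken in each sample as the change in log2 CPM, relative to the gene's mean over samples, per doubling of exon length. The mean slope of BL6 was 0.142 ± 0.034 without surgery (SD, n = 4) and -0.108 ± 0.024 after it, and that of MRL was 0.034 ± 0.066 without and -0.068 ± 0.052 after it. The BL6 groups did not overlap, with 0.095 to 0.177 against -0.134 to -0.086, and the MRL groups did, with -0.042 to 0.117 against -0.102 to 0.009. The lowest unoperated MRL value belonged to replicate 1 and the highest operated MRL value to replicate 4, both of them libraries that stood apart. The interaction of the slopes was 0.148, with p = 0.0098 in a two-sided exact permutation test of strain labels within each surgery group (4900 arrangements, smallest possible p 0.000408). Without replicate 1 of unoperated MRL and replicate 4 of operated BL6 it was 0.128 (exact p = 0.0155), and without replicate 4 of operated MRL as well it was 0.102 (exact p = 0.0214). It was 0.15 (exact p = 0.00939) when 270 ribosomal protein and respiratory chain genes, many of them short, were left out, a fit added after the data had been seen. The permutation takes the strains as alike within each surgery group, while the unoperated means were 0.142 and 0.034. Its p-values therefore do not measure the interaction alone. RNA integrity values were not among the labels, and their part in the slopes was not tested.

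**Figure D3:**
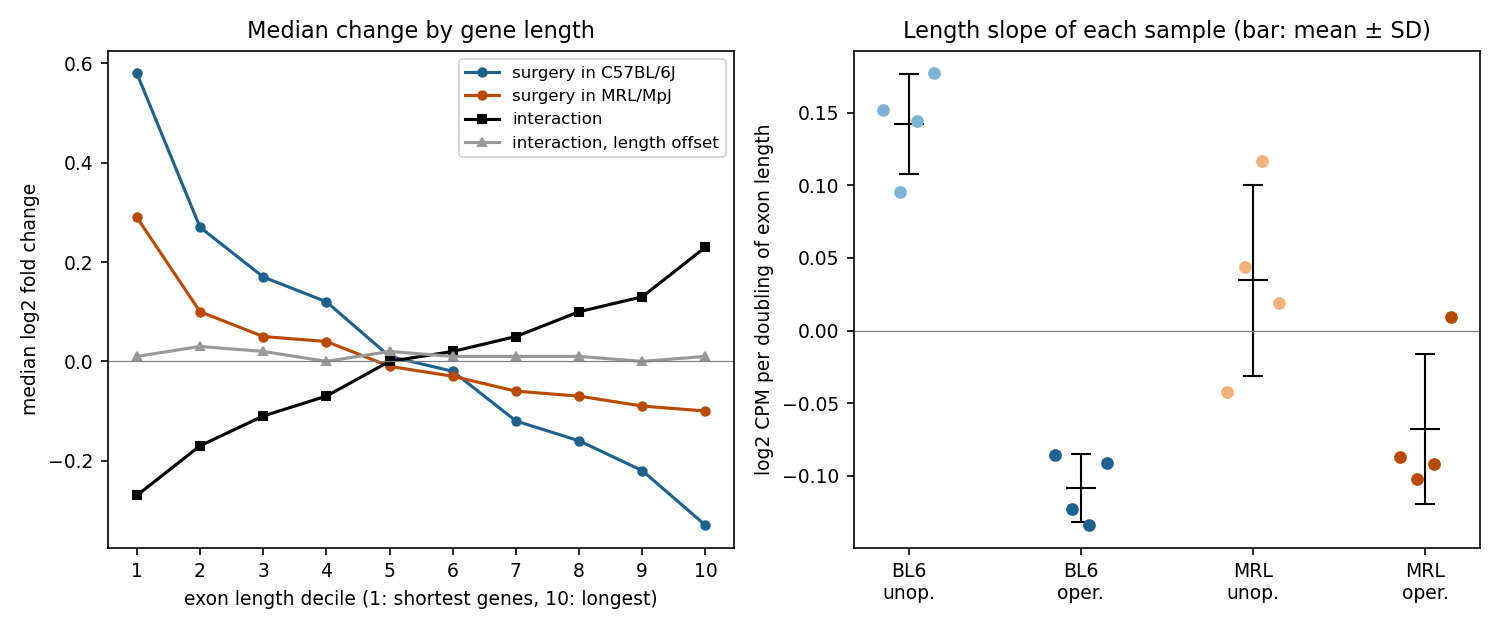
Left, median log2 change of genes in 10 bins of exon length, for surgery in each strain, the interaction, and the interaction after a length offset. The interaction climbs from -0.27 to 0.23, and it is flat after the offset, which removes the length trend by construction. Right, the length slope of each sample with group mean and SD; the BL6 groups lie apart, at 0.095 to 0.177 and -0.134 to -0.086, and the MRL groups overlap.

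With a length offset, a smooth function of exon length removed from each sample, the medians of all 10 bins lay between 0.00 and 0.03, and 4 genes (0.0342%) were called in place of 29. Bche (1.11), Cd82 (-1.51) and Cep63 were 3 of them. Cep63 encodes a centrosomal protein of 9598 exon bases, and it had an interaction of -0.77 and an adjusted p of 0.0298 with the offset, against -0.62 and 0.0622 without it, in edgeR's test. Cep63 held 21.8, 20.9, 22.1 and 24.9 CPM in unoperated and 21, 22.5, 20.01 and 20.9 CPM in operated BL6. In MRL it fell from 49.3, 52.5, 59.5 and 54 to 33.8, 29.9, 31.4 and 37.2 CPM without overlap. Its change in BL6 was -0.09 (adjusted p = 0.411 in edgeR's test), whereas each of the 29 genes had changed in BL6. Of the 26 named genes called without the offset, the interaction kept its sign with it in all, and for Tppp it was 1.33 (adjusted p = 0.0588), for Tppp3 -1.46 (0.0862) and for Ccdc28b -0.75 (0.0588) in the same test. The interaction went from 0.78 to 0.53 for Tmem245 (adjusted p = 0.165 in edgeR's test) and from 0.91 to 0.64 for Gcn1l1 (0.118). For Matr3 it went from 0.76 to 0.59 (0.089), and for Gamt from -1.05 to -0.78 (0.127). With the offset it was larger in size for Fv1, Kcnc4 and Pcmtd2, and smaller for the other named called genes.

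Single samples moved the count of called genes. Leaving out 1 of the 16 samples gave between 1 and 69 called genes. The count was 69 without replicate 2 of operated BL6, 40 without replicate 3 of operated MRL and 36 without replicate 4 of operated BL6. It was 5 and 2 without replicates 1 and 3 of operated BL6, and 1, 8 and 18 without replicates 1, 2 and 4 of operated MRL. Among unoperated samples it was 3, 1, 4 and 1 without replicates 1 to 4 of BL6, and 5, 3, 17 and 2 without those of MRL. A total of 100 genes were called in at least 1 of these 16 fits and 1 in all of them. Of the 26 named genes, Ccdc28b was called in 13 and Matr3 in 8 of them, and the median of the 29 genes was 4 fits. The interaction of each of the 29 kept its sign in every one of the 48 settings that tested the gene.

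**Figure D4:**
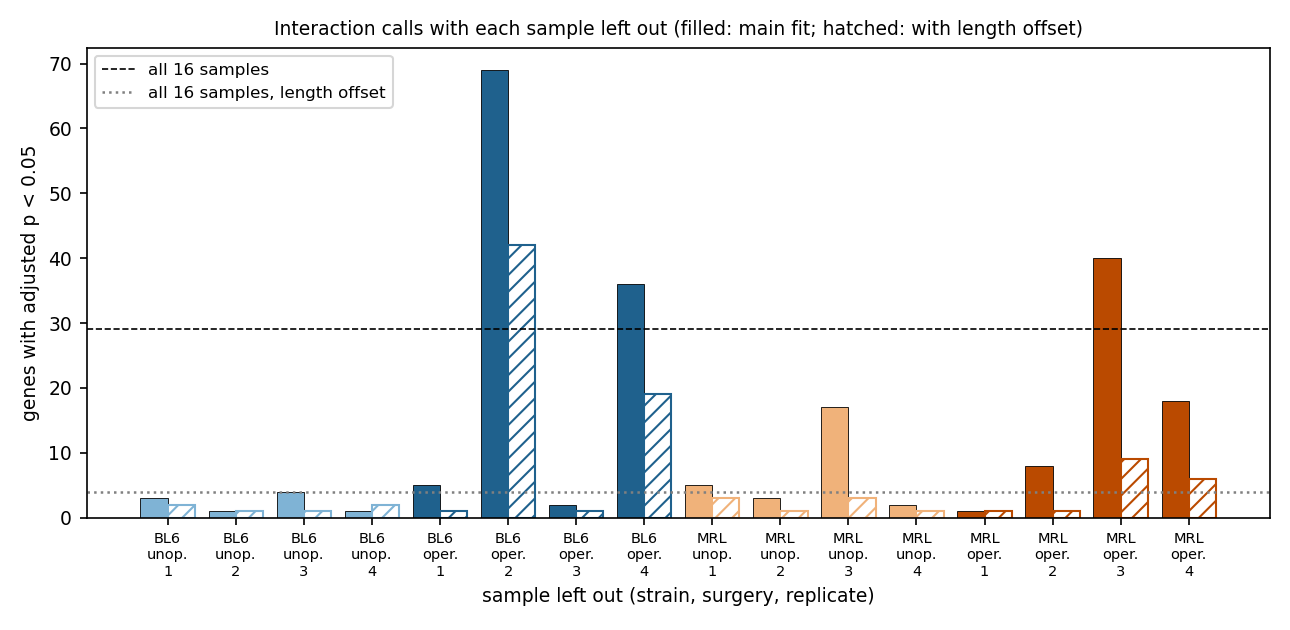
Number of genes called in the interaction when 1 sample is left out, named on the x axis by strain, surgery and replicate; filled bars are the main fit and hatched bars the fit with the length offset. The count ranges from 1 to 69 around the 29 of all 16 samples (dashed line), and from 1 to 42 around the 4 with the length offset (dotted line).

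Leaving out replicate 1 of unoperated MRL and replicate 4 of operated BL6 together gave 22 called genes (0.188% of those tested), of which 16 were among the 29. Leaving out replicate 4 of operated MRL as well gave 67 (0.572%), of which 22 were among the 29. Snx10 and Cd82 held interactions of 2.02 and -1.51 without the 3 libraries.

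Processes were described through lists of genes, none of which was tested as a set. For reference, 8.58% of all genes had a positive and 7.16% a negative interaction at an unadjusted p under 0.05, and the median interaction was -0.01. In BL6 35.1% of all genes rose and 32.8% fell, and in MRL 22.3% rose and 22.7% fell. On the 16 lists described here 5 genes passed the adjusted threshold: Tppp, Tppp3, Cd82, Hspa8 and Ddx3y. The called ribosomal protein genes Rpl34 and Rpl35a are on none of the lists.

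Cytosolic ribosomal proteins, which build the translating ribosome, rose more in BL6. Of 37 tested, 34 rose in BL6 and 18 in MRL, and none fell in either. The median change was 0.88 in BL6 and 0.41 in MRL, and the median interaction was -0.42. The list holds only part of the family and leaves out the called genes Rpl34 (adjusted p = 0.0387 in edgeR's test) and Rpl35a (adjusted p = 0.0347 in the same test). Of the genes on it none passed the adjusted threshold, and 19 (51.4%) were negative at an unadjusted p under 0.05. These are short genes, with a median of 2431 exon bases, and with the length offset the median was -0.22 and the count 9, where 5.56% of all genes were negative by the same measure. Without replicate 1 of unoperated MRL and replicate 4 of operated BL6 the median was -0.33 and the count 8, beside 4.38% of all genes. Without the 3 libraries that stood apart the median was -0.24, and with the offset as well -0.12. Rpl11 held 1.69 to 2.13 CPM in unoperated and 4.47 to 5.27 CPM in operated BL6, against 1.9 to 2.78 and 2.55 to 3.78 CPM in MRL, with an interaction of -0.88 (SE 0.25). The interaction of Rpl6 was -0.53 (SE 0.15). That of Rps2 was -0.74 (SE 0.19), with 70.5 to 85.4 CPM in unoperated BL6 against 1.05 to 1.52 in unoperated MRL. In 5 of the 37 genes unoperated MRL lay more than 2 log2 units under unoperated BL6, as in 78 of all genes tested, and without these 5 the median interaction was -0.38. None of the 37 was searched for near-identical copies, and the part of such copies in their counts was not tested.

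Genes of slow and oxidative fibers, which resist fatigue, had interactions of the other sign. All 11 tested had an interaction above 0, none was called, and the median was 0.82. In MRL 8 rose and in BL6 2. Without replicate 4 of operated MRL the median was -0.08. Slow myosin heavy chain Myh7, chosen after its values were seen, held 2.19, 0.936, 16.2 and 201 CPM in operated MRL, so that 1 library carried its rise. Its light chain Myl3 held 1.58, 0.728, 11.4 and 57.2 CPM in operated MRL, against 0.948, 5.49, 3.64 and 1.08 CPM in unoperated MRL. Casq2, the calsequestrin of slow and cardiac muscle, was less tied to that library: it rose in MRL from 9.29, 10.4, 10.4 and 9.78 to 16.6, 12.7, 17.8 and 19.6 CPM without overlap. In BL6 it was 16.1 to 23.5 CPM before and 16.7 to 27.3 CPM after surgery, and the interaction was 0.61 (SE 0.23), adjusted p = 0.237 in edgeR's test. Myl2 had an interaction of 1.13 (SE 0.56), and 61.1, 42.7, 170.5 and 213 CPM in operated MRL. Its interaction was 0.72 without replicate 4 of operated MRL and 0.46 without the 3 libraries.

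Macrophage, tendon, Schwann cell and collagen genes had negative medians, and all but the Schwann cell median lay between -0.10 and 0.32 without 2 of the libraries that stood apart. The macrophage list had a median interaction of -1.67, with 15 of 17 genes called up in BL6 and 1 in MRL. Without replicate 1 of unoperated MRL and replicate 4 of operated BL6 the median was 0.04. Adgre1, the F4/80 antigen, held 3.39, 1.39, 1.0 and 0.839 CPM in unoperated BL6 and 3.63, 2.36, 4.51 and 19.1 CPM in operated BL6. In MRL it held 48.5, 1.38, 2.0 and 1.95 CPM before and 3.57, 2.71, 6.07 and 6.13 CPM after surgery. Its interaction was -3.71 (SE 1.43) with all samples and 0.31 without those 2. Aif1 went from -4.65 to 0.12 and Itgam from -3.08 to 0.09 in the same way.

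The collagen list went from a median of -0.69 to 0.32 and the tendon list from -1.31 to -0.10 without the same pair of libraries. Comp, a matrix protein of tendon and cartilage, held 34.9, 16.5, 26.8 and 194 CPM in operated BL6 and 16, 13.6, 45.3 and 31.5 in operated MRL, and its interaction went from -2.25 to -0.45. Tnmd, tenomodulin, went from -1.73 to -0.31, and Scx, the transcription factor scleraxis of tendon cells, from -1.47 to -0.40. Of the collagens, Col1a1 went from -1.91 to 0.14, Col16a1 from -1.93 to -0.06 and Col18a1 from -0.82 to -0.25. None of these genes passed the adjusted threshold in either fit.

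Schwann cells wrap nerve fibers and change state when an axon is cut. Their list kept a negative median, -0.93 with all samples and -0.47 without the pair, and none of its 9 tested genes was called. Ngfr, the low-affinity neurotrophin receptor that repair Schwann cells carry, was at 0.24, 0.981, 1.11 and 0.514 CPM in unoperated and 3.35, 0.736, 3.94 and 5.0 CPM in operated BL6. In MRL it was at 1.31, 1.2, 1.9 and 1.03 CPM before and 1.5, 0.763, 1.1 and 1.87 CPM after surgery. The operated BL6 samples of replicates 1, 3 and 4 lay above all others, and replicate 2 lay among the unoperated ones. The interaction was -2.23 (SE 0.72), adjusted p = 0.188 in edgeR's test, and -1.93 without the pair. The myelin protein gene Pmp22 rose in both strains, with an interaction of -1.10 (SE 0.42), and the interaction of S100b was -1.05 (SE 0.47). Without the pair they were -0.85 and -0.47, and S100b was -0.63 without replicate 4 of operated BL6 alone.

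**Figure D5:**
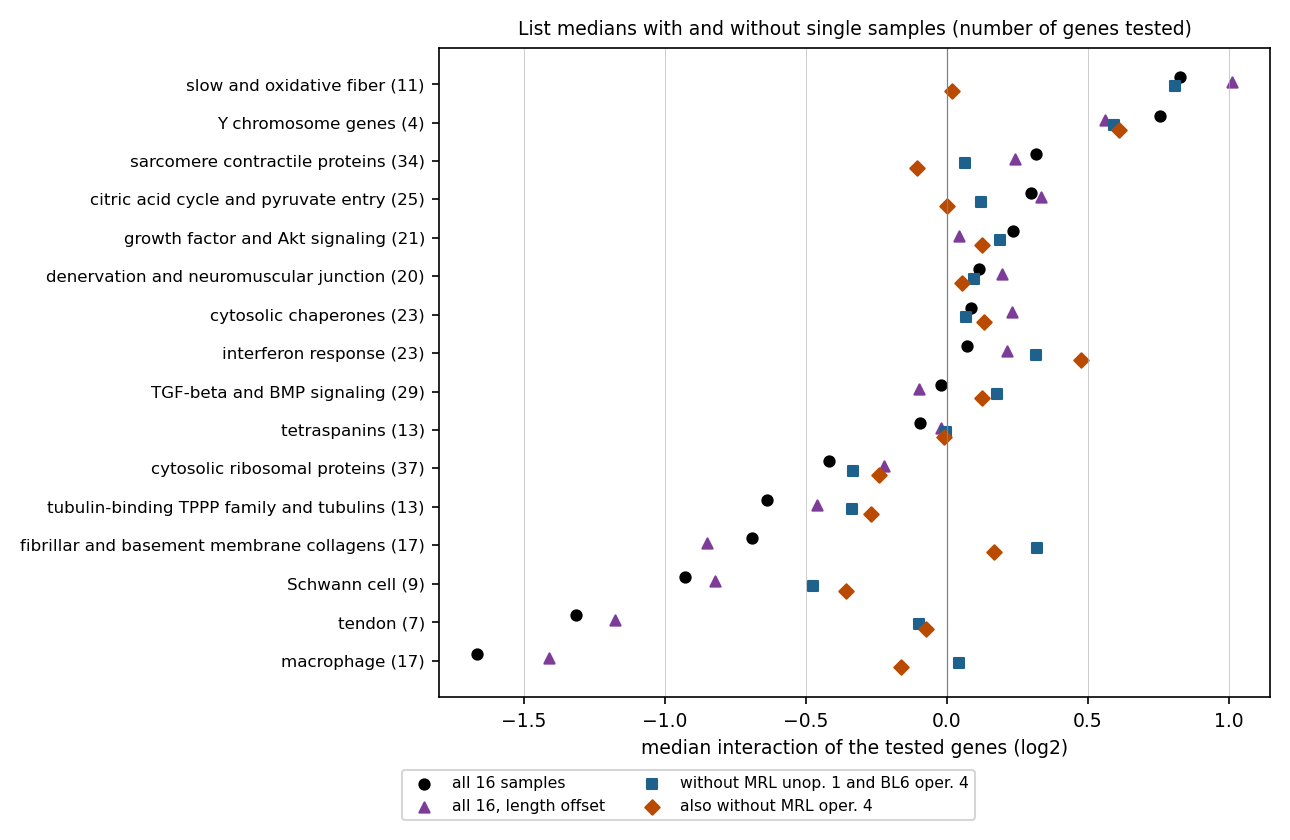
Median interaction of the tested genes of 16 lists (number of genes in brackets) with all 16 samples, with the length offset, without replicate 1 of unoperated MRL and replicate 4 of operated BL6, and also without replicate 4 of operated MRL. Macrophage, tendon and collagen medians move from -1.67, -1.31 and -0.69 to values between -0.10 and 0.32 without the pair, and the slow fiber median moves from 0.82 to 0.02 without the 3 libraries. The Y chromosome, ribosomal protein, tubulin and Schwann cell medians are among those that keep their sign in all 4.

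All 4 Y chromosome genes on the list fell in BL6 and none changed by its test in MRL, with a median interaction of 0.76 that was 0.66 to 0.88 when each sample was left out. Kdm5d, a histone demethylase, went from 18.5, 18.9, 21 and 21.1 to 10.5, 11.3, 9.88 and 8.67 CPM in BL6 and from 15.8, 17.1, 20.5 and 19.4 to 13, 15.8, 12.5 and 17.6 CPM in MRL. Uty went from 22.9, 21.8, 18.2 and 20.6 to 16.1, 18.9, 10.9 and 9.41 CPM in BL6, and in MRL it stood higher in both states, at 35.4 to 47.4 and 36.6 to 62.9 CPM. Their interactions were 0.67 (SE 0.18) and 0.84 (SE 0.29), neither called, beside 1.21 (SE 0.22) for Ddx3y, which was. All 3 have more exon bases than the median gene, and with the length offset their interactions were 0.43, 0.69 and 1.18.

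Among genes of denervation and the neuromuscular junction, 5 of 20 had a positive and 1 a negative interaction at an unadjusted p under 0.05, with none called and a median of 0.11. Dach2, a transcriptional corepressor that acts on nerve-dependent genes of muscle, fell from 3.27, 2.94, 2.88 and 4.46 to 0.727, 0.813, 0.68 and 0.455 CPM in BL6. In MRL it was low already, at 0.214, 0.281, 0.129 and 0.352 CPM before and 0.122, 0.173, 0.213 and 0.184 CPM after surgery, close to the level of 3 counts. The interaction was 1.85 (SE 0.48), adjusted p = 0.13 in edgeR's test. Hdac4, a deacetylase that relays the loss of nerve input, had an interaction of 0.66 (SE 0.21). Cdkn1a, the cell cycle inhibitor p21, had one of -1.07 (SE 0.35), rising 6.09-fold in BL6 and 2.9-fold in MRL.

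TGF-beta and BMP signaling held 7 genes with a positive and 1 with a negative interaction at an unadjusted p under 0.05, of 29 tested, with none called and a median of -0.02 that was 0.18 without replicate 1 of unoperated MRL and replicate 4 of operated BL6. Acvr2a, a receptor for activin and myostatin, fell from 36.6, 31.7, 29.3 and 35.1 to 16.2, 12.4, 11.1 and 15 CPM in BL6 and from 29.9, 35.5, 42.7 and 32.5 to 26.4, 21.5, 26.9 and 30.6 CPM in MRL. The operated BL6 samples lay below all others, and the interaction was 0.86 (SE 0.20), adjusted p = 0.096 in edgeR's test. The BMP receptor Bmpr1a fell in both strains, with an interaction of 0.96 (SE 0.29) that was 0.61 without the 3 libraries, where replicate 4 of operated MRL held 70.1 CPM against 36.7 to 40.9 in the others. The ligand Tgfb2 fell in BL6 and not by its test in MRL, with an interaction of 0.69 (SE 0.20). In the growth factor and Akt list 4 genes were positive and 2 negative at that unadjusted p, of 21 tested, with none called and a median of 0.23. These are long genes, with a median of 8658 exon bases. With the length offset the list median was 0.04, with 2 positive and 2 negative genes, and without the 3 libraries as well it was -0.02. The ribosomal S6 kinase gene Rps6kb1 had an interaction of 0.58 (SE 0.16), the insulin receptor substrate Irs1 one of 1.35 (SE 0.38) and the binding protein Igfbp3 one of -0.66 (SE 0.22). In Irs1, replicate 4 of operated MRL held 106 CPM against 40.9 to 48.9 in the others.

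Contractile and metabolic genes with a positive interaction often had a high value in replicate 4 of operated MRL. Neb, the thin filament ruler nebulin, went from 4038, 3309, 5555 and 6429 to 1544, 1536, 1144 and 869 CPM in BL6. In MRL it went from 2376, 3765, 4508 and 3334 to 1963, 2099, 1679 and 4069 CPM, where replicate 4 of the operated group lay within the unoperated range and the other 3 below it. The interaction was 1.41 (SE 0.43), and 0.78 without the 3 libraries. The interaction of Mybpc1, slow myosin-binding protein C, went from 0.84 (SE 0.34) to 0.32 in the same way, and the fast light chain Myl1 had an interaction of -0.54 (SE 0.23). The median of the 34 sarcomere genes went from 0.32 to -0.10 without the 3 libraries, and was 0.415 without replicate 2 of operated BL6 alone. It was -0.008 without replicate 4 of operated MRL alone. With that library kept, it was 0.06 without replicate 1 of unoperated MRL and replicate 4 of operated BL6.

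In the citric acid cycle list no gene rose in either strain, 17 of 25 fell in BL6 and 11 in MRL, and the median interaction went from 0.30 to 0.00 without the 3 libraries. It was 0.16 without replicate 4 of operated MRL alone, and 0.12 without replicate 1 of unoperated MRL and replicate 4 of operated BL6. Pdpr, the regulatory subunit of pyruvate dehydrogenase phosphatase, held 6.42, 6.62, 4.72 and 3.33 CPM in operated BL6 and 5.6, 5.86, 4.3 and 57.1 CPM in operated MRL, and its interaction went from 2.39 (SE 0.97) to 0.13. Pdp1, the catalytic subunit, was less tied to that library, with 38.7, 40.9, 53 and 36.6 CPM in operated BL6 and 84.9, 74.1, 56.9 and 78.8 CPM in operated MRL, and an interaction of 0.76 (SE 0.23) that was 0.63 without the 3. The operated strains did not overlap in Pdp1. Dld, the shared dehydrogenase subunit of pyruvate and oxoglutarate oxidation, had an interaction that went from 0.62 (SE 0.27) to 0.21.

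The tetraspanins Cd63 and Cd9 had interactions of the same sign as Cd82, -0.79 (SE 0.16) and -0.97 (SE 0.29), which were -0.55 and -0.55 without the 3 libraries, and Cd63 missed the threshold (adjusted p = 0.0554 in edgeR's test). Cd63, a marker of late endosomes and exosomes, rose from 36.2, 40.4, 37.2 and 35 to 73.1, 76.5, 75.5 and 98 CPM in BL6 and from 60.9, 50.8, 45.1 and 55.5 to 65.7, 68.5, 72.1 and 60.5 CPM in MRL. The BL6 groups did not overlap, and in MRL the lowest operated sample lay just under the highest unoperated one. The median of the 13 tested tetraspanins was -0.09, with 3 negative and 1 positive at an unadjusted p under 0.05. Among 23 chaperones Hspa8 was called, the median was 0.09, and the inducible Hsp90aa1 had an interaction of 1.47 (SE 0.54), with 20.1, 26.6, 7.85 and 10.4 CPM in operated MRL. It was 0.97 without replicate 1 of unoperated BL6, which held 21.3 CPM against 6.85 to 9.99 in the other 3. The mitochondrial chaperonin Hspd1 had one of 0.49 (SE 0.22).

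Interferon-response genes rose in both strains, 16 of 23 in BL6 and 20 in MRL, and none was called in the interaction, whose median was 0.07. Without replicate 1 of unoperated MRL and replicate 4 of operated BL6 the median was 0.315. Without the 3 libraries that stood apart, a fit added after the data had been seen, it was 0.48. Gbp3 and Gbp7 were called in that fit (adjusted p = 0.0426 for both in edgeR's test), as were 0.572% of all genes. The fit leaves out replicate 4 of operated MRL, which held the lowest operated MRL value of Gbp3, Gbp7 (3.37 CPM) and Ifih1 (4.03 CPM). The guanylate-binding protein Gbp3 rose in MRL from 9.35, 7.49, 7.9 and 7.88 to 30.5, 24.3, 19.7 and 10.2 CPM, and stood at 5.39 to 7.43 and 6.82 to 11.7 CPM in BL6. Ifih1, the RNA sensor MDA5, rose in MRL, and its BL6 change was 0.13 (adjusted p = 0.62 in edgeR's test). Gbp7 fell in BL6 from a range of 12.5 to 17.3 CPM to one of 5.89 to 7.17 CPM, within the range of MRL. The interactions of the 3 genes were 0.86 (SE 0.36), 0.83 (SE 0.33) and 1.22 (SE 0.32), with adjusted p of 0.27, 0.257 and 0.128 with all samples in the same test. Without the 3 libraries the interactions were 1.29, 1.24 and 1.42.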

How the data were processed

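RNA of 16 mouse rotator cuff muscle samples was sequenced, and the authors deposited whole-number counts per gene with no normalization, per the values in the table. The submitters' processing notes name FastQC, STAR, edgeR and the build mm10, with no versions or order. The rule by which the deposited table came to hold 11710 genes is not given in the sources used here, and 0 of its sample columns were left unmatched. A deposited table of the authors' own comparisons was not used.

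In R 4.3.3, edgeR 4.0.16 scaled the counts by trimmed means (TMM), and filterByExpr at a minimum count of 10 kept 11709 genes. All 16 samples entered 1 quasi-likelihood fit with a mean for each group, which gave the interaction, the effect of surgery in each strain and the strain difference in each surgery group. P-values were adjusted by Benjamini-Hochberg over all genes, with 0.05 as the threshold for calling a gene. CPM means carry SDs over 4 samples. Exon length is the union of exons in GENCODE M21 (GRCm38), where 11708 gene IDs matched. The length offset is a natural spline with 5 degrees of freedom of log2 CPM (prior count 2) on log2 exon length, fitted in each sample. The fit was tested on simulated data. Alternatives were DESeq2 1.42.0 and limma 3.58.1 with voom, other scalings and filters, a replicate block, the length offset, and leaving out samples, and fits without 3 samples, with samples left out under the length offset and, for the length slope, without ribosomal protein and respiratory chain genes were added after the data had been seen.

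Named genes are the called ones of at least 1 CPM with a gene symbol other than a clone name, at most 30, the 3 genes of smallest unadjusted p in each list described, whether or not they were called, genes called with the length offset at 5 CPM or more, and both members of a family with a called member. A further called gene is not reported here. The genes, lists and comparisons were chosen with earlier results of these data known. Total counts of 24323862 to 43552964 per sample give a floor, at 3 counts, of 0.0689 to 0.123 CPM. Since no molecular identifiers are named, such floors describe counting error alone.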

Additional observations from a re-analysis of the deposited data

Results flagged for a closer look

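The 26 called genes that are named were picked by edgeR's quasi-likelihood test of the interaction, so their values below are no separate evidence. The positive values were 1.93 for Fv1, 1.61 for Snx10, 1.35 for Tppp, 1.28 for Rrm2b, 1.21 for Ddx3y, 1.19 for Bche, 1.18 for both Pcmtd2 and Kcnc4, 1.11 for Fzd4, 0.95 for Nup160, 0.93 for Oxr1, 0.92 for Tmf1, 0.91 for Gcn1l1, 0.83 for Jade1, 0.78 for Tmem245, 0.76 for Matr3 and 0.73 for Sp3. The negative values were -1.87 for Tcea1, -1.69 for Tppp3, -1.63 for Cd82, -1.55 for Mvd, -1.17 for both Hspa8 and Rpl34, -1.05 for Gamt, -1.04 for Rpl35a and -0.96 for Ccdc28b. The length slope had an interaction of 0.148.

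In 27 of 296 groups of 4 values, 1 sample lay far from the other 3 by Dixon's criterion, which chance alone meets in about 1 of 20 groups. The tally cannot be set against that share, since Myh7, Kcna7 and Ankrd1 were chosen after their values were seen and several genes share a library. Replicate 1 of unoperated MRL was far above its group in Aif1 (32.9 CPM), Adgre1 (48.5), Itgam (17), Col1a1 (539) and Tnmd (12.1), and below it in Jade1 (20.7) and Pdp1 (107). Replicate 4 of operated BL6 was far above its group in Adgre1 (19.1 CPM), Itgam (5.52), Col1a1 (2160.5), Comp (194), Tnmd (57.1), Scx (22.2) and Cd63 (98). Replicate 4 of operated MRL was far above its group in Pdpr (57.1 CPM), Bmpr1a (70.1), Irs1 (106), Myh7 (201), Kcna7 (63.2) and Ankrd1 (511), and in the length slope (0.009). The other cases were Tmem245 (26.4 CPM) and Hspd1 (50.8) in replicate 3 of operated MRL, Kcnc4 (100.4) in replicate 3 of unoperated MRL, Tppp3 (43.3) and Tubb6 (19.6) in replicates 4 and 1 of unoperated BL6, and Rpl11 (5.27) in replicate 2 of operated BL6.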

How the results depend on the processing

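The count of 29 called genes depended on the setting. It was 250 with DESeq2, 230 with limma voom and sample quality weights, 14 with total-count scaling, 4 with the length offset, 67 without the 3 libraries that stood apart and 47 without them under the offset. Leaving out 1 sample gave 1 to 69, and 1, 2, 3, 6, 9, 19 or 42 under the offset, and the cause was not tested. With the replicate block 2 genes were called, among them Ccdc28b, and with block and offset 1. The labels do not say whether replicate numbers pair the samples. Deviations from the group means correlated at 0.0427 on average over 24 same-numbered pairs (-0.4739 to 0.4525). Over 72 other pairs the mean was -0.0092 (-0.5598 to 0.5358), and with ranges this wide the values cannot decide it. The slope interaction stayed at 0.148 with the replicate block, where its exact p was the smallest that 16 sign patterns allow and above 0.05. It ran from 0.122 to 0.175 without 1 sample, with exact p under 0.05 in each.

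Of 1247 values of the 26 named called genes under other settings, 422 stayed called, 825 did not, and 0 changed sign. The sign changed in 7 genes that were not called. Without replicate 1 of unoperated MRL and replicate 4 of operated BL6, and then with the offset too, Aif1 was 0.12 and 0.29, Adgre1 0.31 and 0.31, and Itgam 0.09 and 0.01, while Col1a1 was 0.14 without the pair. Without all 3 libraries, and then with the offset, Aif1 was 0.06 and 0.21, Adgre1 0.13 and 0.15, Myh7 -0.80 and -0.97, and Kcna7 -0.13 and -0.02. Myh7 ran from -0.53 to 3.38 without 1 sample, lowest without replicate 4 of operated MRL, and was -0.65 there with the offset. With quality weights Myl3 was -0.42 and Myh7 -0.80. Depth limits Dach2 in MRL, near the floor of 3 counts.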

Other observations

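Adipocyte, endothelial and antigen presentation genes rose in both strains. Of all genes tested, 35.1% rose in BL6 and 22.3% in MRL, and 15.7% had an interaction at an unadjusted p under 0.05. Of 15 adipocyte genes tested, 12 rose in BL6 and 12 in MRL, with medians of 2.47 and 2.26, and 0 had an interaction at an unadjusted p under 0.05. Of 12 endothelial genes, 10 rose in BL6 and 11 in MRL, with medians of 1.24 and 1.25. Antigen presentation genes rose in both strains, 15 and 14 of 16, with a median interaction of -0.31 that was 0.08 without replicate 1 of unoperated MRL and replicate 4 of operated BL6. The adipocyte median turned likewise, from -0.43 to 0.44, and was -0.11 without the 3 libraries that stood apart. Proteasome subunits had median changes of 0.06 and 0.04. In none of these 4 lists was a gene called in the interaction, and a missed threshold does not show equal responses.

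Fatty acid oxidation genes fell in BL6 in 15 and in MRL in 9 of 26 genes, where 32.8% and 22.7% of all genes fell. Of the 26, 23 had an interaction above 0. The list median was 0.28, beside -0.01 for all genes. It was 0.13 without replicate 1 of unoperated MRL and replicate 4 of operated BL6, and 0.02 without the 3 libraries that stood apart. Complement genes had a median interaction of -1.56 with all samples and -0.01 without replicate 1 of unoperated MRL and replicate 4 of operated BL6. Erythroid genes, a measure of blood in the sample, had a median of 1.35 over 6 genes, and 0.30 without replicate 3 of operated MRL, where they summed to 5749 CPM against 723 to 1057 in the other operated MRL samples.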
